A study of Mus musculus with 10 samples.

Results

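The MYC, MAX and MXD network is a family of transcription factors that compete for one partner and one DNA site. The genes described here are the activators Myc, Mycn and Mycl, their partner Max, the antagonists Mxd1, Mxi1, Mxd3, Mxd4 and Mnt, and the related partner Mlx. They were chosen by name, and every array probe whose transcript accession belongs to one of them was taken. These 10 genes had 16 of the 56605 non-control probes, and 13 of the 16 probes, from 9 genes, were bright enough to be tested.

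The study profiled colonies that grew from mouse bone marrow carrying the BCR-ABL oncogene. Marrow of donors aged 6 weeks was transduced with retrovirus, plated in methylcellulose free of growth factors, and picked as colonies for RNA after 10 days. BCR-ABL, a fusion kinase found in some human leukaemias, lets marrow cells grow into colonies without added cytokines. Cdk6 is a cyclin D-dependent kinase that also acts in transcription. All colonies, the controls included, are labelled BCR-ABL+, so no group lacks the oncogene.

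Each of the 4 Cdk6-/- samples, which lack Cdk6, and the 4 Cdk6-K43M samples, which carry a kinase-inactive form of it, was labelled with Cy5 and hybridised against one Cy3-labelled pool of 4 wild-type (Cdk6+/+) samples. In addition, 2 arrays with swapped dyes compared a pool of the 4 Cdk6-/- RNAs and a pool of the 4 Cdk6-K43M RNAs with the wild-type pool. The series calls the samples biological replicates, but the labels do not say how many animals stand behind them. Between the mutants, the p-values thus measure the spread between these samples. Against the pool, the swapped arrays enter the fit as further arrays, although their pools hold the same RNAs as the single samples. Those p-values therefore mix sample spread with repeats of the same RNA. The wild-type pool is a single control sample whose own spread enters no test, and both comparisons with it share it. All values below are log2 ratios of mutant over wild-type pool, with the sign of the swapped arrays reversed, unless a difference between the mutants is named.

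As background, MYC proteins bind DNA as dimers with MAX and activate genes of ribosome production, nucleotide synthesis and growth. MXD proteins, MXI1 and MNT also dimerise with MAX, occupy the same E-box sequence CACGTG and recruit SIN3 and histone deacetylase corepressors. MLX is the partner of the glucose-responsive factors MLXIP and MLXIPL and can also pair with some MXD proteins and MNT. In lymphoid cells MYC drives proliferation, and BCR-ABL signalling is known to depend on it.

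The E-box is shown here in the promoters of the network's own genes, because it is the site for which its members compete. RefSeq promoter windows of GRCm38.p6 (250 bases before to 50 bases after the transcription start) were found for 9 of the 10 genes, 11 windows in all, and 4 of the 11 held CACGTG, a palindrome that reads the same on both strands. Of all 32851 windows of this length, 7.15% held it. No window was found for Myc, so its promoter was not searched. The 4 stretches of 60 bases around the sites are given 5′ to 3′ on the gene's strand with the E-box in capitals. They lie at chr5:34187897-34187956 (minus strand, Mxd4), chr11:74830774-74830833 (plus strand, Mnt), chr11:101087223-101087282 (plus strand, Mlx) and chr12:76962219-76962278 (minus strand, Max).
Mxd4: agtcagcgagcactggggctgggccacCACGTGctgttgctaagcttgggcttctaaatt
Mnt: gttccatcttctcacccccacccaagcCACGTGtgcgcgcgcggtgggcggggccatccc
Mlx: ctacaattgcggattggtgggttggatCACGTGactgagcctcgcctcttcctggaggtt
Max: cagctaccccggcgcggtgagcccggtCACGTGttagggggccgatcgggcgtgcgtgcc

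The E-box begins 219 bases before the start of Mxd4, 123 before that of Mnt, 40 before that of Mlx and 3 before that of Max. The windows were also searched on both strands for GGGCGG, the GC box, which 9 of the 11 held, against 35.7% of all windows. By gene, 7 of the 9 with a window held it, since Mxi1 has several windows, some of which overlap. A match is a string of letters and does not show that a factor binds. Of the genes with an E-box, Mnt changed in these colonies and Max, Mlx and Mxd4 did not pass the test, as described below.

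The share of probes well above background in the mutant channel was 46.9% to 49.9%, and no spot was saturated. The 16 B-lineage markers were well above background in all 8 single samples and in the wild-type channel of all 10 arrays. Cdk6 itself was -0.37, -0.40, -0.18 and 0.00 in the 4 Cdk6-/- samples and -0.67 on their swapped array, against 0.31, 0.40, 0.33 and 0.83 in the Cdk6-K43M samples and 0.33 on theirs. Its fitted change was -0.41 (SE 0.0988, adjusted p = 0.0368) in Cdk6-/- and 0.35 (SE 0.0988, adjusted p = 0.031) in Cdk6-K43M, and the former lost its call without the swapped arrays (-0.24, adjusted p = 0.137). Where its probe lies relative to the deleted part is not known here, so it does not check the Cdk6-/- labels. Of the 22008 genes tested, 1593 passed an adjusted p of 0.05 in Cdk6-/- and 4427 in Cdk6-K43M, both against the pool, and 113 differed between the mutants.

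Across the network, 1 of the 9 tested genes passed in each comparison. Myc was 1.37-fold lower in Cdk6-/- than in the wild-type pool, and Mnt was 1.53-fold lower in Cdk6-K43M. Mnt was also 1.48-fold lower in Cdk6-K43M than in Cdk6-/-. The background was 7.24% of all genes called in Cdk6-/- against the pool, 20.1% in Cdk6-K43M against the pool and 0.513% between the mutants, so the 1 of 9 in the first comparison lies near its background and that in Cdk6-K43M below it. In the difference between the mutants, 1 call among 9 genes stands beside a background of 0.513%, but that call was lost in 12 of the 17 alternative analyses.

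**Figure D1:**
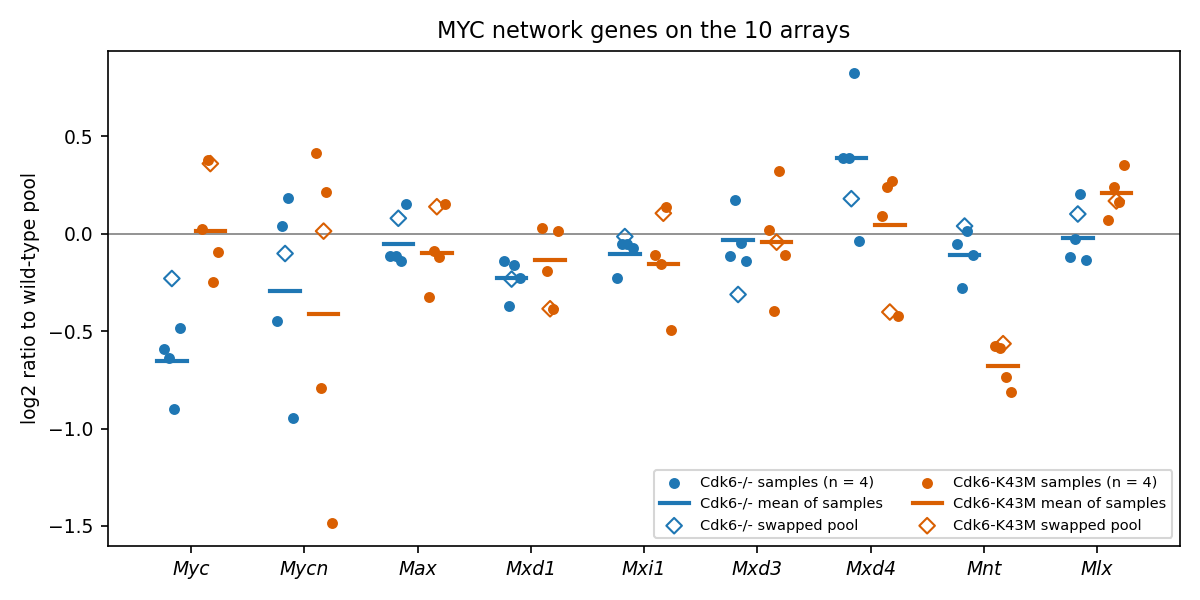
Log2 ratio to the wild-type pool (y axis) of the 9 tested MYC network genes (x axis), 1 probe per gene, on the 10 arrays. Filled points are single samples, bars are means of the 4 samples of a genotype and open diamonds are the dye-swapped pools; Myc (Cdk6-/- low) and Mnt (Cdk6-K43M low) are the genes whose single samples do not overlap between the genotypes.

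Myc, the activator that gives the network its name, was -0.59, -0.64, -0.90 and -0.49 in Cdk6-/- replicates 1 to 4 by its brighter probe and -0.23 on their swapped array. In the Cdk6-K43M samples the same probe read 0.02, 0.38, -0.25 and -0.09, with 0.36 on the swapped array. All 5 Cdk6-/- arrays were thus below the wild-type pool, the Cdk6-K43M samples lay on both sides of it, and the single samples of the genotypes did not overlap. Among all genes, 24.4% had one sign on all 5 Cdk6-/- arrays.

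The fitted Myc change in Cdk6-/- was -0.45 (SE 0.0969, 95% interval -0.67 to -0.24, adjusted p = 0.0255 by limma). The mean of the 4 single samples was lower, at -0.65 ± 0.177 (SD, n = 4). The swapped array, which enters the fit, showed the smallest decrease. The fit also holds a dye term that the arrays of both genotypes share. The call was lost with the slide as a block (adjusted p = 0.0734), when the pool's own spread was added to the standard errors (adjusted p = 0.222), and without Cdk6-/- replicate 1 (adjusted p = 0.0616) or replicate 2 (adjusted p = 0.0539). Myc was lower under all 17 alternatives, from -0.65 to -0.39, with adjusted p from 0.00507 to 0.222. In Cdk6-K43M the fitted Myc change was 0.20 (SE 0.0969, interval -0.02 to 0.41, adjusted p = 0.185), which did not pass, although it did with median centring (0.41, adjusted p = 0.00771).

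The second Myc probe gave the same order. It read -0.34, -0.32, -0.58 and -0.33 in the Cdk6-/- samples and -0.24 on their swapped array. In the Cdk6-K43M samples it read 0.19, 0.45, -0.06 and 0.10, with 0.20 on the swapped array. The genotypes again did not overlap, and in the fit over all probes its change in Cdk6-/- was -0.34 (SE 0.0796, adjusted p = 0.0354).

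Between the mutants, Myc was higher in Cdk6-K43M by 0.67 on the log2 scale (SE 0.144, interval 0.34 to 0.99), and this did not pass the test across all genes (adjusted p = 0.112). Median centring brought it past the threshold (0.83, adjusted p = 0.0381), as did a fit of all 10 arrays that included a dye term (0.65, adjusted p = 0.0289). The latter takes in the swapped pools, which repeat the RNAs of the single samples. An exact permutation test of each probe alone, two-sided over the 70 ways to divide the 8 samples, gave p = 0.0286, the smallest value it can give and the one that any 4 against 4 samples without overlap give. Genotypes also stood apart without overlap for 8.15% of all genes. Within slides the difference was 0.61, 0.83 and 0.39 for the brighter probe and 0.53, 0.73 and 0.27 for the other. Samples that do not overlap must give the same sign on every slide, so this sign adds no support.

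Markers of other cells were read beside Myc, and some of them passed against the pool. Over all genes, 3.39% rose and 3.85% fell in Cdk6-/-, and 9.79% rose and 10.3% fell in Cdk6-K43M. Between the mutants, 0.264% of all genes were higher in Cdk6-K43M and 0.25% lower. Of 20 myeloid markers, 16 were measured, of which 6 fell in Cdk6-/- and none rose (median -0.54, against a median of 0.00 over all genes). In Cdk6-K43M 6 fell and none rose (median -0.13). None passed between the mutants in limma, where 1 had an unadjusted p under 0.05 (6.25%, against 14.1% of all genes). The mean log2 ratio of the measured myeloid markers ranged from -1.27 to -0.830 over the Cdk6-/- samples and from -0.996 to 0.328 over the Cdk6-K43M samples. Their summed level, on the log2 scale, was 15.1 to 15.5 in Cdk6-/-, 15.2 to 16 in Cdk6-K43M and 15.4 to 15.7 in the wild-type channel. Camp, Ctsg, Ltf, Mpo, Ngp, Prtn3 and S100a8, granule and neutrophil genes, were well above background in no Cdk6-/- sample, and Ltf and Prtn3 also in no Cdk6-K43M sample and no wild-type channel. Of these, Camp, Mpo, Ngp and S100a8 are among the 16 measured and enter the medians and means above. They were kept only for their level in Cdk6-K43M samples or wild-type channels, so lower values in Cdk6-/- follow partly from that choice. Of 12 T and NK cell markers, 7 were measured: 2 rose and 2 fell in Cdk6-/-, 2 rose and 1 fell in Cdk6-K43M, and 1 was higher in Cdk6-K43M than in Cdk6-/-. Their summed level was 13.6 to 14.1 in Cdk6-/-, 13.5 to 14.8 in Cdk6-K43M and 14.2 to 14.4 in the wild-type channel, and Cd3g, Cd8a and Ncr1 were well above background in none of these. Of 8 stem and progenitor markers, 5 were measured: 1 fell in Cdk6-/- and 1 rose in Cdk6-K43M. Their summed level was 11.6 to 13.1 in Cdk6-/-, 11.4 to 14.5 in Cdk6-K43M and 11.3 to 11.7 in the wild-type channel. Of 9 erythroid and megakaryocyte markers, 4 were measured, and 1 rose in Cdk6-/-. Their summed level was 9.0 to 9.8, 9.3 to 10.9 and 9.6 to 9.9 in the same order. The part of these cells in the Myc values was not tested. In RNA of whole colonies, fewer cells that express a gene and less of its RNA per cell cannot be told apart.

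Mycn, the paralogue used in neural and some early haematopoietic cells, varied most. It was -0.45, 0.04, 0.18 and -0.94 in the Cdk6-/- samples and -0.10 on their swapped array. Mycn was 0.41, -0.79, 0.22 and -1.49 in Cdk6-K43M, with 0.01 on the swapped array. Both genotypes had samples above and below the pool and overlapped fully, and replicate 4 was the lowest in each. The fitted changes were -0.16 (SE 0.289, interval -0.81 to 0.48, adjusted p = 0.772) in Cdk6-/- and -0.23 (interval -0.88 to 0.41, adjusted p = 0.626) in Cdk6-K43M. Both intervals include -0.45, the fitted change of Myc in Cdk6-/-, so a difference of that size in Mycn could not be told from none. Mycl, the third activator, was not tested: 1 of its 2 probes was well above background in 2 Cdk6-/- samples, 1 Cdk6-K43M sample and no wild-type channel, and the other in none.

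Max, the partner with which MYC proteins bind DNA, stayed close to the pool. It was -0.11, -0.12, -0.14 and 0.15 in the Cdk6-/- samples and 0.08 on their swapped array. Max was -0.33, -0.09, -0.12 and 0.15 in Cdk6-K43M, with 0.14 on the swapped array. In both genotypes replicate 4 was the only single sample above the pool, and the values overlapped.

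The fitted Max change was 0.03 in Cdk6-/- (interval -0.15 to 0.20, adjusted p = 0.863) and 0.01 in Cdk6-K43M (interval -0.17 to 0.18, adjusted p = 0.97). The difference between the mutants was -0.04 (interval -0.30 to 0.22, adjusted p = 0.9). Signs this close to 0 turned under several scalings, and with median centring Max passed as higher in Cdk6-K43M (0.27, adjusted p = 0.0352). The second Max probe ranged from -0.54 to 0.21 over the 8 samples, and its lowest value was also in Cdk6-K43M replicate 1.

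**Figure D2:**
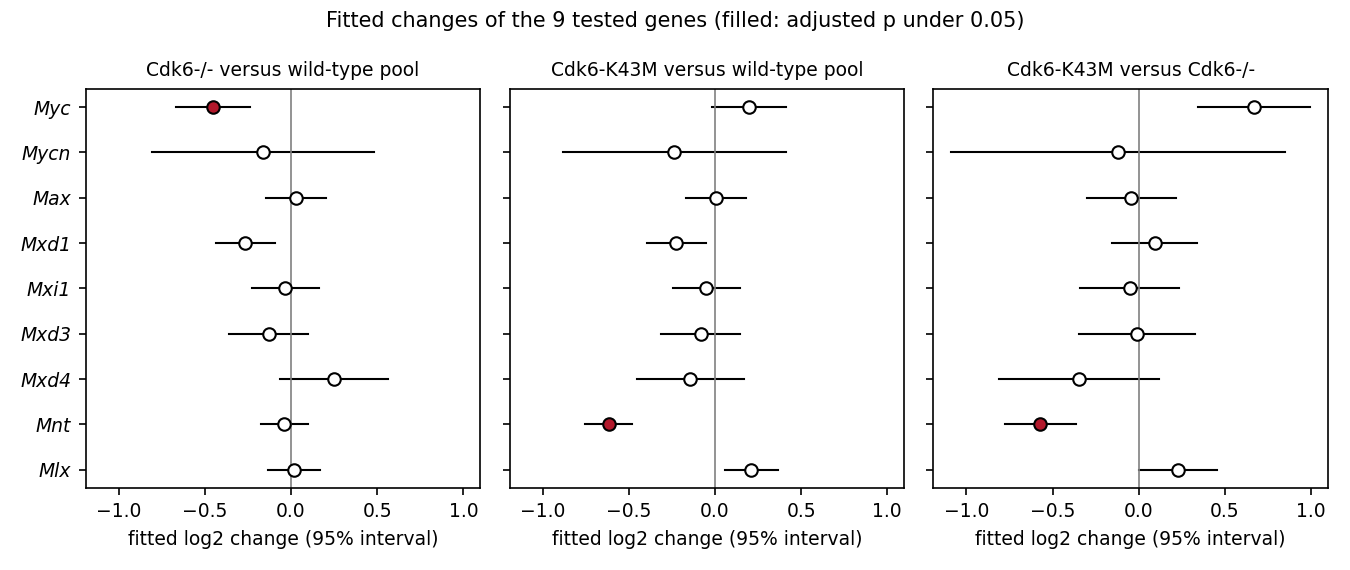
Fitted log2 change (x axis) with its 95% interval for the 9 tested MYC network genes in each of the 3 comparisons; filled points passed an adjusted p of 0.05. Myc passed in Cdk6-/- against the wild-type pool, and Mnt passed in both comparisons that involve Cdk6-K43M.

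Mnt, the antagonist that is expressed in cycling as well as resting cells, was the member with the largest change in Cdk6-K43M. Its 1 probe read -0.58, -0.59, -0.74 and -0.81 in the Cdk6-K43M samples and -0.56 on their swapped array. In the Cdk6-/- samples it read -0.05, -0.28, 0.01 and -0.11, with 0.04 on the swapped array. Every Cdk6-K43M array was lower than every Cdk6-/- array. Over all genes, 29.8% had one sign on all 5 Cdk6-K43M arrays.

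Against the wild-type pool, Mnt fell by 0.62 in Cdk6-K43M (SE 0.0609, interval -0.75 to -0.48, adjusted p = 0.000234), and it passed the threshold under all 17 alternatives, with values from -0.68 to -0.42. In Cdk6-/- the fitted change was -0.04 (interval -0.18 to 0.10, adjusted p = 0.733). Between the mutants Mnt was lower in Cdk6-K43M by 0.57, a difference of -0.57 (SE 0.0912, interval -0.78 to -0.36, adjusted p = 0.0405). Its adjusted p ranged from 0.00559 to 0.149 over the alternatives and passed in 5 of the 17. The call was lost under median centring (adjusted p = 0.0806), in the authors' deposited table of normalized values (0.0593), when Agilent's processed signals were used (0.0828), with the slide (0.107) or the replicate number (0.123) as a block, without Cdk6-/- replicate 1 (0.149), 3 (0.1) or 4 (0.0964), and without any 1 Cdk6-K43M sample (0.0662 to 0.114). The direction held in each, from -0.63 to -0.44. Within slides the difference was -0.52, -0.65 and -0.46, where samples without overlap can only give this sign. Of the 16 B-lineage markers, 4 rose and 4 fell in Cdk6-K43M (median -0.10) and in Cdk6-/- 1 rose (median 0.06). Over all genes, 9.79% rose and 10.3% fell in Cdk6-K43M, and 3.39% rose in Cdk6-/-. The part of the B-lineage markers in the Mnt values, like that of the other cell markers given above, was not tested.

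**Figure D3:**
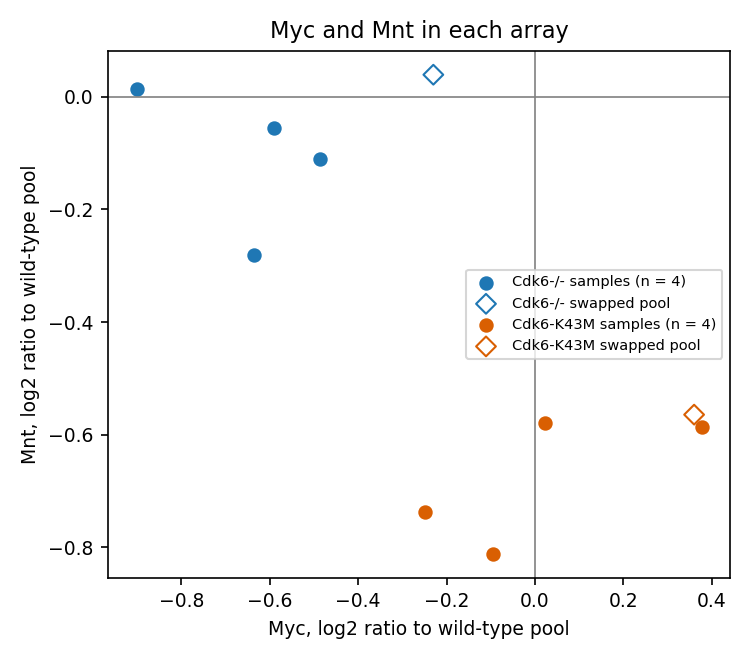
Myc (x axis) against Mnt (y axis), both as log2 ratio to the wild-type pool, on the 10 arrays; filled points are single samples and open diamonds dye-swapped pools. Cdk6-/- arrays lie at low Myc and Mnt between -0.28 and 0.04, and Cdk6-K43M arrays at Mnt between -0.81 and -0.56 with Myc on both sides of 0.

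The MXD genes encode repressors that rise as blood cells leave the cycle and differentiate. Mxd1 was -0.14, -0.37, -0.16 and -0.23 in the Cdk6-/- samples and -0.23 on their swapped array. Mxd1 was 0.03, -0.19, -0.39 and 0.01 in Cdk6-K43M, with -0.39 on the swapped array. All 5 Cdk6-/- arrays were thus below the pool, while 2 of the Cdk6-K43M samples were at or just above it, and the genotypes overlapped.

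The fitted Mxd1 change was -0.27 in Cdk6-/- (SE 0.0768, interval -0.44 to -0.09, adjusted p = 0.0668) and -0.22 in Cdk6-K43M (interval -0.39 to -0.05, adjusted p = 0.0676), and neither passed. The first passed without Cdk6-K43M replicate 3 (adjusted p = 0.0472), and the second without Cdk6-K43M replicate 1 (adjusted p = 0.05) or replicate 4 (adjusted p = 0.0451). The mutants differed by 0.09 (interval -0.15 to 0.34, adjusted p = 0.743). A second Mxd1 probe was well above background in no mutant sample and in 2 of the 10 wild-type channels, and it was not tested.

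Mxd4 was 0.39, 0.39, 0.82 and -0.04 in the Cdk6-/- samples and 0.18 on their swapped array. Mxd4 was 0.09, 0.24, 0.27 and -0.42 in Cdk6-K43M, with -0.40 on the swapped array. In both genotypes replicate 3 was the highest and replicate 4 the lowest, and the genotypes overlapped. The fitted change was 0.25 in Cdk6-/- (SE 0.14, interval -0.06 to 0.56, adjusted p = 0.298) and -0.14 in Cdk6-K43M (interval -0.45 to 0.17, adjusted p = 0.528). The mutants differed by -0.35 (interval -0.81 to 0.12, adjusted p = 0.478), which the test did not separate from 0.

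Mxi1, also called Mxd2, was -0.23, -0.05, -0.05 and -0.07 in the Cdk6-/- samples and -0.01 on their swapped array. Mxi1 was -0.11, -0.15, 0.14 and -0.50 in Cdk6-K43M, with 0.11 on the swapped array. The Cdk6-K43M samples spread over a wider range that enclosed those of Cdk6-/-. The fitted changes were -0.03 (adjusted p = 0.856) and -0.05 (adjusted p = 0.735), with intervals from -0.23 to 0.16 and from -0.25 to 0.14.

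Mxd3, the MXD family member linked to proliferating cells, was -0.11, 0.17, -0.05 and -0.14 in the Cdk6-/- samples and -0.31 on their swapped array. In the Cdk6-K43M samples it was 0.02, -0.40, 0.32 and -0.11, with -0.04 on the swapped array. Neither genotype stood to one side of the pool. The fitted changes were -0.13 (interval -0.36 to 0.10, adjusted p = 0.471) and -0.08 (interval -0.31 to 0.15, adjusted p = 0.63). The second Mxd3 probe ordered the Cdk6-K43M samples the same way, from -0.44 in replicate 2 to 0.38 in replicate 3.

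Mlx, the partner outside the MAX branch, was 0.07, 0.24, 0.16 and 0.35 in the Cdk6-K43M samples and 0.17 on their swapped array. In the Cdk6-/- samples it was -0.12, -0.03, 0.20 and -0.14, with 0.10 on the swapped array. All 5 Cdk6-K43M arrays were above the pool, but Cdk6-/- replicate 3 overlapped them. The fitted change in Cdk6-K43M was 0.21 (SE 0.0684, interval 0.06 to 0.36, adjusted p = 0.0544), just short of the threshold. Mlx passed under median centring (0.37, adjusted p = 0.00352), from Agilent's processed signals (0.27, adjusted p = 0.0394) and without Cdk6-/- replicate 3 (0.22, adjusted p = 0.0311).

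The probes of Mlx disagreed, however. The dimmer one read 0.00, -0.02, 0.05 and 0.26 in the Cdk6-K43M samples and -0.14 on their swapped array, with a fitted change of -0.03 (adjusted p = 0.733). In Cdk6-/- the Mlx change was 0.02 (interval -0.14 to 0.17, adjusted p = 0.909), and the mutants differed by 0.23 (interval 0.00 to 0.45, adjusted p = 0.351).

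Genes that work with the network were described by lists, with the share of all genes called as the background, and not every gene counted is named. In Cdk6-/- 3.39% of all genes rose and 3.85% fell. In Cdk6-K43M these shares were 9.79% and 10.3%, and between the mutants 0.264% were higher and 0.25% lower in Cdk6-K43M. The median change over all genes was 0.00, -0.01 and -0.01. When the standard errors were widened for an assumed spread of the pool, no gene of these lists passed in Cdk6-/-. In Cdk6-K43M, of the genes named below, Zbtb17, Wdr5, Sin3a, E2f1, Ctcf, Odc1, Polr1b and Ppat lost their calls with this widening.

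The corepressor list held 7 genes of the SIN3, histone deacetylase and related complexes through which MXD and MNT act. In Cdk6-K43M 1 of the 7 rose and 2 fell (median -0.14), in Cdk6-/- 1 rose and none fell (median -0.06), and between the mutants 1 was lower. Hdac1, a histone deacetylase, was the gene that passed between the mutants.

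Hdac1 read -0.87, -0.81, -0.82 and -0.59 in the Cdk6-K43M samples and -0.63 on their swapped array. In the Cdk6-/- samples it read -0.19, -0.15, -0.18 and -0.06, with 0.05 on the swapped array. No Cdk6-K43M array overlapped a Cdk6-/- array, as for Mnt. Hdac1 fell by 0.69 in Cdk6-K43M (SE 0.0546, adjusted p = 7.91e-05), past the threshold under all 17 alternatives, and differed by -0.63 between the mutants (SE 0.0818, adjusted p = 0.0165, and from 0.00165 to 0.0825 over the alternatives). That difference lost its call in 8 of the 17, with median centring (-0.46), with the slide or the replicate number as a block, and without Cdk6-/- replicate 1, 2 or 4 or Cdk6-K43M replicate 1 or 3 (adjusted p = 0.0571 to 0.0684 without a sample). A second probe of Hdac1 gave -1.30 in Cdk6-K43M, a larger decrease. Sin3a, the scaffold of the SIN3 complex, fell by 0.34 in Cdk6-K43M (adjusted p = 0.00541), a call lost with median centring (-0.15, adjusted p = 0.262).

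Of the 12 MYC cofactors measured, in Cdk6-/- 1 rose and none fell, and in Cdk6-K43M 1 rose and 2 fell. Kat5, an acetyltransferase that MYC recruits, fell by 0.35 in Cdk6-K43M (adjusted p = 0.00191). Zbtb17, the zinc finger protein MIZ1 through which MYC represses genes, fell by 0.24 (adjusted p = 0.00755). With median centring both lost their calls, at -0.15 for Kat5 (adjusted p = 0.141) and -0.046 for Zbtb17 (adjusted p = 0.653). Wdr5, which helps MYC bind chromatin, rose by 0.31 (adjusted p = 0.0341), but its other probe read 0.05 (adjusted p = 0.715) and it lost its call with the mean of the probes (0.18, adjusted p = 0.117) and without Cdk6-K43M replicate 1 (adjusted p = 0.0757) or 3 (adjusted p = 0.0751).

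Of the 16 genes that control the stability or activity of the MYC protein, in Cdk6-/- 1 rose and in Cdk6-K43M 2 rose, and none fell. Usp36, a nucleolar deubiquitinase of MYC, was 0.75, 0.99, 0.46 and 0.78 in the Cdk6-K43M samples and 0.54 on their swapped array. In the Cdk6-/- samples it was 0.11, 0.23, 0.00 and 0.20, with -0.12 on the swapped array. Every Cdk6-K43M array was above every Cdk6-/- array, and Usp36 rose by 0.64 in Cdk6-K43M (SE 0.0768, adjusted p = 0.000664), past the threshold under all 17 alternatives.

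The second Usp36 probe showed less, 0.13 (adjusted p = 0.232), and the difference between the mutants by the brighter probe, 0.61, did not pass (adjusted p = 0.0759). Mycbp2, a large ubiquitin ligase first found as a MYC-binding protein, rose by 0.53 in Cdk6-/- (SE 0.074, adjusted p = 0.00444) and by 0.54 in Cdk6-K43M (adjusted p = 0.00116). Both of its probes passed in both comparisons. Its samples ran from 0.29 to 0.68 in Cdk6-/- and from 0.29 to 0.64 in Cdk6-K43M.

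Among the 16 genes upstream of Myc, 2 fell in Cdk6-/- (median -0.06), 7 fell in Cdk6-K43M (median -0.17), and none rose in either. With the standard errors widened for an assumed spread of the pool, 2 of the 16 fell in Cdk6-K43M. In Cdk6-K43M 13 of the 16 values were below 0, and 14 of 16 were lower in Cdk6-K43M than in Cdk6-/-, a comparison in which none passed in limma and 3 had an unadjusted p under 0.05 (18.8%, against 14.1% of all genes). E2f1, a cell cycle factor that activates Myc, read -0.53, -0.26, -0.47 and -0.27 in the Cdk6-/- samples and -0.49, -0.71, -0.25 and -0.25 in the Cdk6-K43M samples. It fell by 0.39 (SE 0.0828, adjusted p = 0.0242) and by 0.42 (adjusted p = 0.00693). The call in Cdk6-/- was lost without Cdk6-/- replicate 1 (adjusted p = 0.0672) and with median centring (adjusted p = 0.0981). Foxo3, a forkhead factor that restrains growth and is inactivated by AKT, fell by 0.39 in Cdk6-/- (SE 0.0836, adjusted p = 0.0255) and by 0.50 in Cdk6-K43M (adjusted p = 0.0032). Its call in Cdk6-/- was lost with median centring (adjusted p = 0.0758) and with Agilent's processed signals (adjusted p = 0.0712). The other Foxo3 probe gave -0.22 in Cdk6-/- (adjusted p = 0.0911) and -0.30 in Cdk6-K43M (adjusted p = 0.0146).

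In Cdk6-K43M, Ikzf3, the lymphoid factor Aiolos that represses Myc in pre-B cells, fell by 0.48 (adjusted p = 0.00171) and Ctcf, an insulator protein bound at Myc, fell by 0.30 (adjusted p = 0.00671). The Ikzf3 samples were -0.51, -0.52, -0.53 and -0.71 in Cdk6-K43M and -0.27, -0.32, 0.04 and -0.39 in Cdk6-/-, without overlap. Other probes of Ikzf3 gave smaller decreases in Cdk6-K43M, -0.20 (adjusted p = 0.0858) and -0.26 (adjusted p = 0.00879). With median centring 2 of the 16 rose and 3 fell in Cdk6-K43M, and the calls of Ctcf (-0.085, adjusted p = 0.526) and E2f1 (-0.22, adjusted p = 0.149) were lost. That scaling moved the median of all genes from -0.01 to 0.11.

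**Figure D4:**
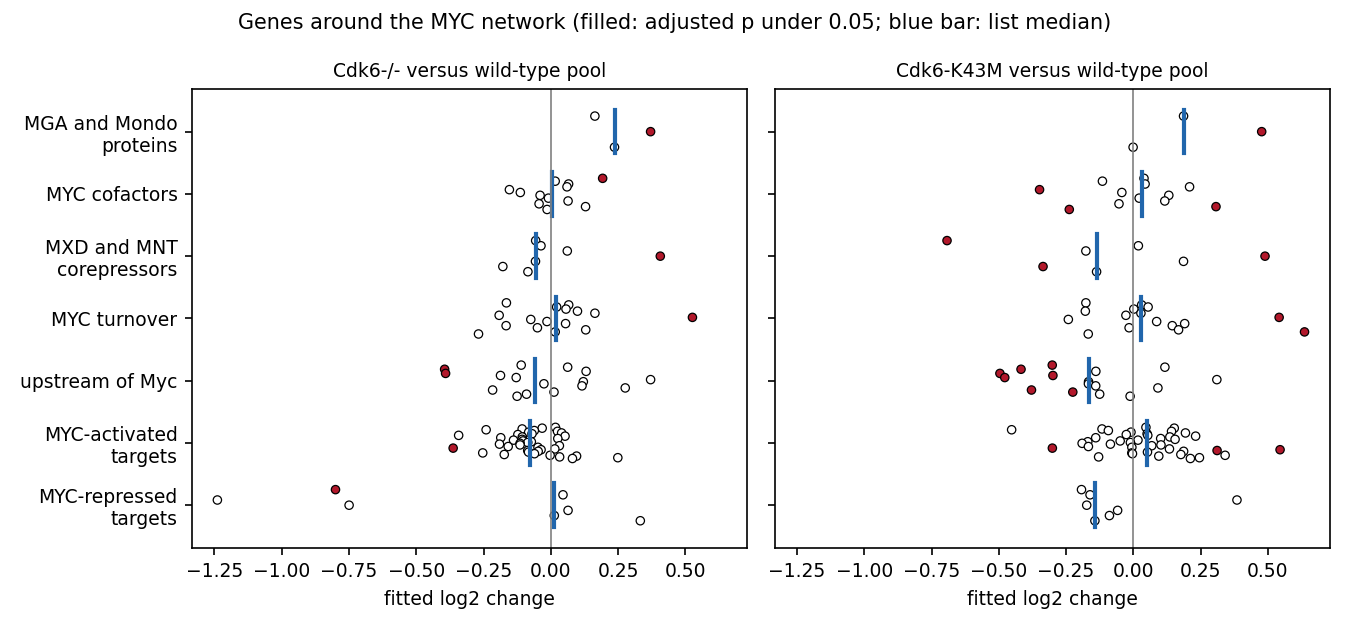
Fitted log2 change (x axis) of each measured gene of the 7 lists around the MYC network (y axis), in Cdk6-/- (left) and Cdk6-K43M (right) against the wild-type pool; filled points passed an adjusted p of 0.05 and blue bars are list medians. In Cdk6-K43M 7 of the 16 genes upstream of Myc are filled, all below 0, and 3 of the 40 MYC-activated targets are filled. With the standard errors widened for an assumed spread of the pool, 2 of the 16 and none of the 40 passed.

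The 40 genes that MYC is known to activate, mostly of ribosome production, nucleotide synthesis and translation, held few that passed. In Cdk6-/- 1 fell and none rose, with 29 of 40 values below 0 and a median of -0.08. In Cdk6-K43M 2 rose and 1 fell, with 17 of 40 below 0 and a median of 0.05. Between the mutants none passed in limma, 5 were higher and none lower at an unadjusted p under 0.05 (12.5%, against 14.1% of all genes), and 32 of 40 values were higher in Cdk6-K43M (median 0.09). Processing moved these counts: on the 8 single-sample arrays alone, 11 fell in Cdk6-/- (median -0.21) and 3 rose and 8 fell in Cdk6-K43M (median -0.08), while with median centring none passed in Cdk6-/- and 18 rose and none fell in Cdk6-K43M (median 0.27).

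Odc1, ornithine decarboxylase of polyamine synthesis and a classical MYC target, was -0.35, -0.31, -0.67 and -0.20 in the Cdk6-/- samples and -0.39 on their swapped array. In the Cdk6-K43M samples it was -0.32, -0.47, -0.49 and -0.14, with -0.20 on the swapped array. It was below the pool on all 10 arrays, and the genotypes overlapped. Odc1 fell by 0.36 in Cdk6-/- (SE 0.0826, adjusted p = 0.0311, lost in 6 of 17 alternatives) and by 0.30 in Cdk6-K43M (adjusted p = 0.0292, lost in 7 of 17). The former was lost without Cdk6-/- replicate 1 (adjusted p = 0.0714) or 2 (0.0537), and the latter without Cdk6-K43M replicate 1 (0.0553), 2 (0.0638) or 3 (0.0656) and with median centring, where it was -0.045 (0.779).

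In Cdk6-K43M, Polr1b, a subunit of RNA polymerase I, rose by 0.55 (adjusted p = 0.017) and Ppat, the first enzyme of purine synthesis, passed as higher (0.31, adjusted p = 0.0183). The Ppat samples were 0.18, 0.04, 0.12 and 0.10 and the swapped array 0.54, and its call was lost without the swapped arrays (0.11, adjusted p = 0.362) and with the mean of its probes (0.24, adjusted p = 0.0536). Of 7 measured genes that MYC is known to repress, 1 fell in Cdk6-/- (median 0.01), and none passed in Cdk6-K43M (median -0.14) or between the mutants. At an unadjusted p under 0.05 in limma, 3 of the 7 were lower and 1 higher in Cdk6-/- (57.1%, against 24.8% of all genes). None reached this in Cdk6-K43M (against 33.4% of all genes). Between the mutants 2 were higher in Cdk6-K43M (28.6%, against 14.1%). Cdkn1a, the cell cycle inhibitor p21, was -0.88, -0.76, -0.83 and -0.85 in the Cdk6-/- samples and -0.75 on their swapped array. In the Cdk6-K43M samples it was -0.26, 0.36, -0.79 and -0.14, with -0.20 on the swapped array, so replicate 3 lay within the Cdk6-/- range and the others above it. Cdkn1a fell by 0.80 in Cdk6-/- (SE 0.138, adjusted p = 0.0119), in the same samples in which Myc was low.

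The 3 remaining network genes, Mga, Mlxip and Mlxipl, lay at or above the pool in both mutants except Mlxipl in Cdk6-K43M, whose value was just below 0. Mlxip, the glucose-sensing partner of MLX also called MondoA, passed in Cdk6-/- (0.37, SE 0.075, adjusted p = 0.0207) and in Cdk6-K43M (0.48, adjusted p = 0.00224). Its single samples were 0.11, 0.00, 0.24 and -0.26 in Cdk6-/- and 0.19, 0.10, 0.25 and 0.11 in Cdk6-K43M, while the swapped arrays read 0.77 and 0.74. Both calls thus rest on the swapped arrays: without them the values were 0.02 (adjusted p = 0.88) and 0.16 (adjusted p = 0.162). The other Mlxip probe gave 0.26 (adjusted p = 0.077) and -0.02 (adjusted p = 0.906).

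The genes whose ratios ran most like those of Myc over the 8 single samples were BC048403 (Pearson r = 0.973), Usp36 (0.970), Camkk2 (0.969), Rpp38 (0.960) and Ipo13 (0.951). For Mxd1 they were Armc7 (0.957), Pet100 (0.950), Sppl2a (0.923), Mtfr1l (0.922) and Ifna9 (0.920). These are the highest of all genes with a symbol, over points that share the wild-type pool, and they are given as a description. Their own levels differ from those of the gene they resemble: Camkk2, a calcium-dependent kinase, was above the pool in all 4 Cdk6-K43M samples, from 0.39 to 0.69, where Myc lay on both sides of it.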

How the data were processed

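Gene expression was measured on 10 Agilent arrays with 2 colours. Per the file headers, they were read by Feature Extraction 11.5.1.1. The deposited scanner intensities are not normalized, and a deposited table of loess-normalized log2 values, per its header and labels, served as an alternative. Here, median spot intensities were background corrected (normexp, offset 50) and loess-normalized within arrays in limma 3.58.1 (R 4.3.3). Probes well above background in at least 3 of the 4 samples of a genotype or in at least 5 wild-type channels were kept (28177), and the brightest stood for its gene (22008 genes). Against the pool, lmFit and eBayes ran on 10 arrays with a dye term, and between the mutants on the 8 single-sample arrays. Adjusted p-values are Benjamini-Hochberg values over the 22008 genes, with a threshold of 0.05, and the script was tested on simulated data. The number of arrays limits the precision (median SE 0.0728 and 0.106). Symbols came from RefSeq transcript accessions, which matched 58.3% of probes. The members, lists and tests were chosen with earlier results of these data known. Of each list, up to 4 genes per comparison with the smallest p among those past the threshold were named, except some that are not reported here, and for Myc and Mxd1 the 5 most correlated genes. Camkk2's values are quoted from that list.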

Additional observations from a re-analysis of the deposited data

Results flagged for a closer look

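Of 26 groups of 4 samples (each kept probe of a network gene in each genotype), 3 had a sample far from the other 3, where chance gives about 1 in 20. Max was highest in Cdk6-/- replicate 4, at 0.15 against -0.14 to -0.11. Mxi1 was lowest in Cdk6-/- replicate 1, at -0.23 against -0.07 to -0.05. By its second probe Myc was lowest in Cdk6-/- replicate 3, at -0.58 against -0.34 to -0.32.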

How the results depend on the processing

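Counts of all genes called moved by over 1.5 times as follows. Against the pool, Cdk6-/- had 1593, and 802 with median centring, 822 with the slide as a block, 3292 without the swapped arrays, 130 with widened standard errors, and 612 to 1931 with 1 sample left out. Cdk6-K43M had 4427, and 1270 with widened errors. Between the mutants there were 113, and 73 with Agilent's processed signals, 33 with the slide block, 559 with all 10 arrays, 37 with the replicate block and 36 to 77 with 1 sample left out. With median centring, calls shifted from 46.8% to 63.5% higher in Cdk6-/-, from 48.7% to 87.9% in Cdk6-K43M and from 51.3% to 65.9% between the mutants. The number of network genes called, 1 in each comparison, was 0 in Cdk6-/- with the slide block or widened errors (0 to 2 with 1 sample left out). In Cdk6-K43M it was 2 with Agilent's signals and 4 with median centring (1 to 2). Between the mutants it was 0 with Agilent's signals, the deposited table, the slide block or the replicate block, 2 with all 10 arrays (0 to 1), and with median centring 1, Myc in place of Mnt.

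Signs turned only for values that passed neither here nor under the alternative that turned them. With median centring they were Mycn between the mutants (0.029), Max (0.153), Mxi1 (0.071) and Mxd3 (0.076) between the mutants, Mxi1 in Cdk6-/- (0.0012) and Cdk6-K43M (0.141), and Mxd3 in Cdk6-K43M (0.074). With the slide block they were Max in Cdk6-/- (-0.0034) and Cdk6-K43M (-0.051) and Mlx in Cdk6-/- (-0.013). Without the swapped arrays they were Max (-0.055 in Cdk6-/- and -0.097 in Cdk6-K43M), Mlx in Cdk6-/- (-0.020) and Mxd4 in Cdk6-K43M (0.045). Mxd3 between the mutants was 0.011 with Agilent's signals, 0.0030 in the deposited table, 0.019 with the mean of probes and 0.047 with all 10 arrays. Mlx in Cdk6-/- was -0.019 with Agilent's signals and -0.055 with the mean of probes. With 1 sample left out, the ranges that crossed 0 were -0.40 to 0.24 for Mycn, -0.125 to 0.035 for Max, -0.151 to 0.060 for Mxi1 and -0.13 to 0.11 for Mxd3 between the mutants, -0.018 to 0.043 (Max) and -0.027 to 0.044 (Mlx) in Cdk6-/-, and -0.044 to 0.056 (Max) and -0.109 to 0.024 (Mxi1) in Cdk6-K43M. The causes were not tested.

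Whether the replicate numbers pair the samples is not known. Deviations of same-numbered samples correlated at 0.0839, -0.0660, 0.228 and 0.139. No correlations of differently numbered samples stand beside these, so they do not settle it. With the replicate number as a block the Mnt difference between the mutants had an adjusted p of 0.123. The main limits are the single wild-type pool and 4 samples a genotype. The change of Cdk6 in Cdk6-/- was -0.41 here and -0.98 with Agilent's processed signals, and the cause was not tested.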
